A study of Mus musculus with 5 samples.

Results

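Cathepsins are the proteases of the lysosome, and 10 of them (Ctsa, Ctsb, Ctsc, Ctsd, Ctsh, Ctsk, Ctsl, Ctss, Ctsw and Ctsz) were followed by gene name in RNA of the whole mouse uterus. Each name matched 1 gene of the 28666 in the deposited count table, and all 10 had enough counts to be among the 17013 genes tested. The libraries came from ICR females aged 6 to 8 weeks that were made pseudopregnant by vasectomized C57BL/6 males, so that the uterus received seminal plasma (SP) but no sperm and held no embryo. In the aged-SP group (2 females, replicates 1 and 4) the males were 12 to 18 months old, and in the young-SP group (3 females, replicates 1, 2 and 4) they were 12 to 14 weeks old. Uteri were taken before implantation, which the sample labels place 3.5 days after caging, and the comparison asks how the uterine RNA differs with the age of the male. The study's methods give a slightly earlier day, counted from mating. Nothing in the labels gives the males behind single females, so the spread between libraries mixes that of the females and that of their males. Whether females of a group shared a male is not known, and the libraries were treated as independent.

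Most cathepsins are made as inactive precursors, carried to the lysosome by mannose 6-phosphate receptors and activated there by removal of a propeptide. They fall into classes by the residue that cuts the peptide bond: Ctsd is an aspartic protease, Ctsa is a serine carboxypeptidase, and the others here belong to the papain family of cysteine proteases. Within that family Ctsb, Ctsk, Ctsl and Ctss cut inside proteins, whereas Ctsc, Ctsh and Ctsz trim their ends (Ctsb also does so). In the uterus before implantation, cathepsins are made by the epithelium, the stroma and resident leukocytes, and their activity is held back by cystatins and related inhibitors.

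Total counts lay between 15071914 and 16728601 per library. Markers of the stroma and muscle of the uterus, such as Dcn and Myh11, were abundant in all libraries, while the gland marker Prss29 was at 2458.2 and 2137 CPM (counts scaled to a common library total) in the aged-SP libraries and at 385.1, 2.96 and 11.5 CPM in young-SP replicates 1, 2 and 4. Young-SP replicate 1 was farther from the other young-SP libraries than these were from each other. The study states that it had left out another young-SP sample as an outlier in clustering. The spread within the young-SP group is therefore that of the libraries that remained. The chi-square per degree of freedom between 2 libraries, which would be about 1 for sampling noise alone, was 17 between young-SP replicates 2 and 4, but 44 and 36.8 between replicate 1 and these, and 32.9 between the aged-SP libraries. Between young-SP replicate 1 and aged-SP replicates 1 and 4 it was 50.4 and 39.4. Cathepsin results that rest on this library are given with and without it.

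The cathepsins were abundant in the uterus. Levels of different genes were compared as FPKM (fragments scaled by gene length and library total, as deposited), and 9 of the 10 members had a mean FPKM above that of at least 94.8% of the listed genes. Ctsd came first with 322 ± 138.5 FPKM (SD over all 5 libraries, both groups together). Ctsb (191.9 ± 44.4), Ctsl (131.8 ± 85.1), Ctss (122.7 ± 49.3) and Ctsz (117.4 ± 26.1) followed, all in FPKM. Neighbours among these 5 genes could not be ordered, because their ranges over the libraries overlapped. Compared within libraries, Ctsd lay above Ctsb in 3 of 5 and Ctsb above Ctsl in 4. Ctsl lay above Ctss in only 1 library and Ctss above Ctsz in 2, against the order of the means. Below Ctsz there was a gap: even its lowest library (89.3 FPKM) lay above the highest of Ctsa (59.2 FPKM). Ctsa, Ctsh, Ctsk and Ctsc formed a second tier with means between 34.3 and 45.3 FPKM and overlapping ranges. Ctsw, a cathepsin of cytotoxic lymphocytes, was last in each of the 5 libraries, at 6.49 ± 2.01 FPKM. The length behind an FPKM value is that of all exons of the gene together, and it ran from 1232 bases for Ctsw to 6489 bases for Ctsl, so that a gene with long, little used exons is placed too low.

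**Figure D1:**
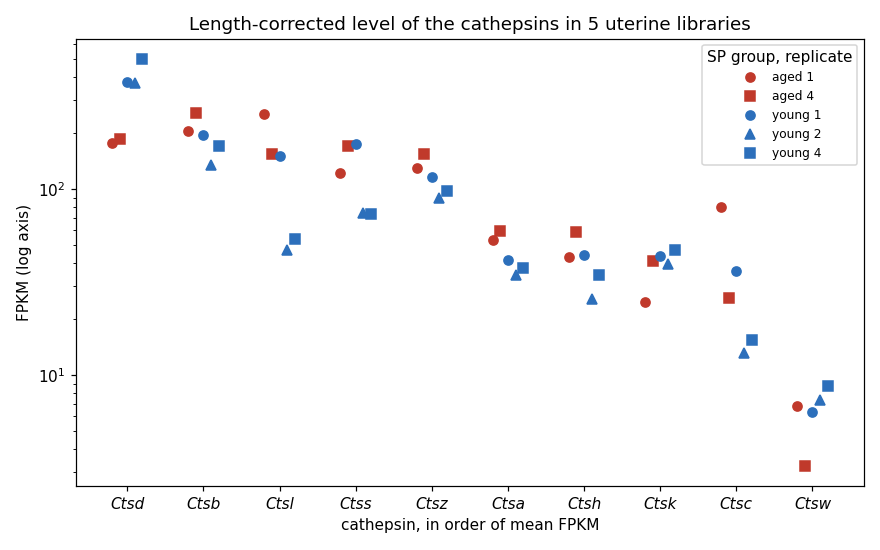
Deposited FPKM (log axis) of the 10 cathepsins, in order of their mean over 5 libraries; red points are aged-SP and blue points young-SP libraries, with a shape for each replicate number. Ctsd is the highest cathepsin in the young-SP libraries (373.8 to 499.1 FPKM) but not in the aged-SP libraries (175.9 and 185.8 FPKM), and Ctsw is the lowest in all 5.

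The order itself differed between the groups at the top. Ctsd ranked first of the 10 genes in each young-SP library, whereas Ctsl was first in aged-SP replicate 1 and Ctsb in aged-SP replicate 4. Of the summed FPKM of the 10 genes, Ctsd made up 16.1% and 16.8% in the aged-SP libraries and 31.8%, 44.5% and 48.1% in young-SP replicates 1, 2 and 4. The ratio of Ctsd to Ctsb in FPKM was 0.855 and 0.729 in the aged-SP libraries against 1.93, 2.78 and 2.93 in the young-SP libraries. The summed level of the family did not separate the groups, with 1095.2 and 1107.9 FPKM in aged-SP replicates 1 and 4 and 1181.4, 839.5 and 1037.2 FPKM in young-SP replicates 1, 2 and 4.

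Between the groups, 7 cathepsins had a log2 fold change (aged-SP over young-SP) above 0, as 50.9% of all tested genes did, and 3 (Ctsd, Ctsk and Ctsw) had one below 0. Differences were tested with edgeR's quasi-likelihood test (two-sided, Benjamini-Hochberg adjustment over the 17013 tested genes) on counts scaled by the TMM method, and a gene was called at an adjusted p under 0.05 with an absolute log2 fold change over 1. By edgeR, 0 of the 10 cathepsins were called, where 0.147% of all tested genes were, and 4 had an unadjusted p under 0.05 (19% of all tested genes). These were Ctsa, Ctsb and Ctsz, higher in the aged-SP group (9.62% of all tested genes had such a p in this direction), and Ctsd, lower (9.36%). DESeq2's Wald test called 1 of the 10, Ctsd, against 3.6% of the genes with an adjusted p in that test, and limma-voom called 0 (0.159% of all tested genes). Both aged-SP libraries lay above every young-SP library for Ctsa, Ctsb, Ctsl and Ctsz (19.5% of all tested genes did so) and below every one for Ctsd (19.3%). The median log2 fold change was 0.49 over the 10 cathepsins and 0.01 over all tested genes.

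**Figure D2:**
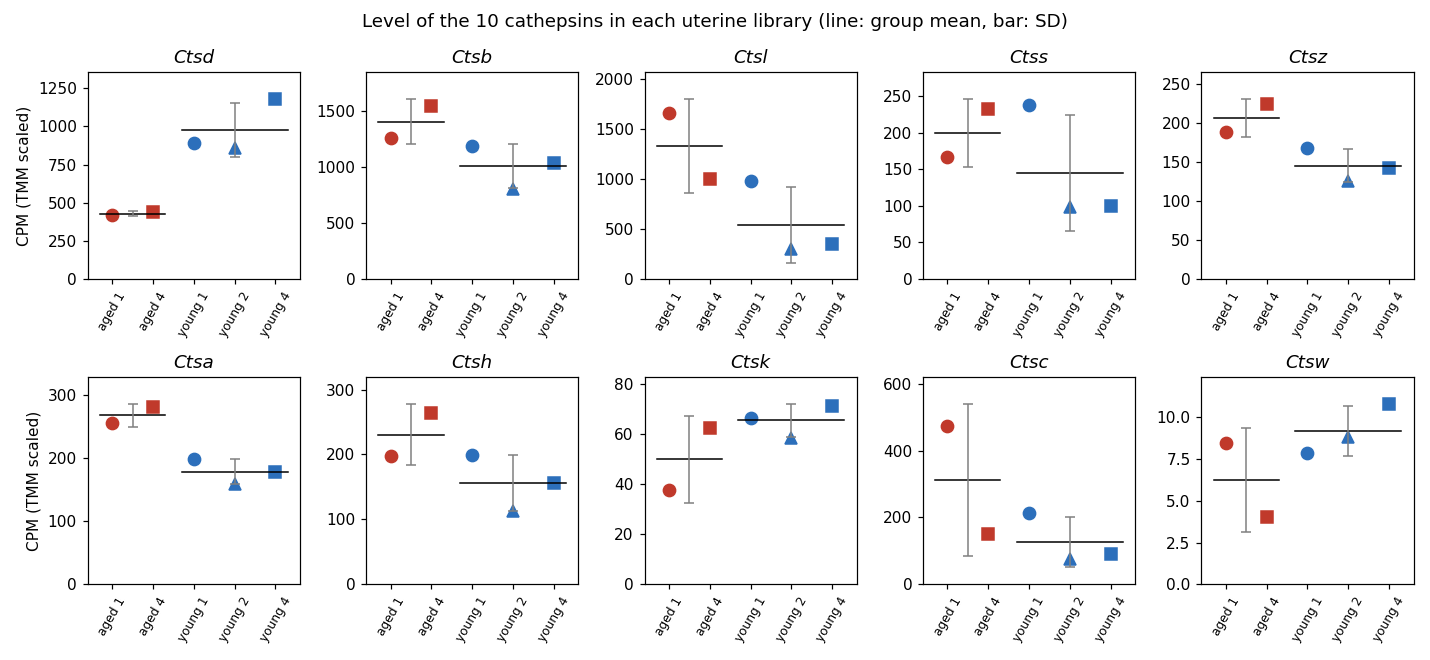
Level of each cathepsin in CPM (counts scaled to a common library total by TMM, axes from 0) in the 2 aged-SP (red) and 3 young-SP (blue) libraries; black lines are group means and grey bars SDs. Ctsd is the one gene whose aged-SP libraries (418.3 and 438 CPM) both lie below all young-SP libraries (860.5 to 1180.5 CPM), while for Ctsl, Ctsc and Ctss young-SP replicate 1 lies near or within the aged-SP range.

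Ctsd, the aspartic cathepsin, showed the clearest separation. It lies on chromosome 7 (142375911 to 142388038, minus strand; this and the following positions are those of the deposited table, which match GRCm38 except for Ctsw). Its level was 418.3 and 438 CPM in aged-SP replicates 1 and 4, and 889.3, 860.5 and 1180.5 CPM in young-SP replicates 1, 2 and 4. Both aged-SP libraries were close together and below every young-SP library, replicate 1 included. edgeR put the difference at -1.19 ± 0.17 (SE) on the log2 scale, a level 0.438 times that of the young-SP group, with an adjusted p of 0.0734. DESeq2 gave an adjusted p of 1.02e-07, so that the call depends on the tool, and over all alternatives the adjusted p of Ctsd (edgeR, DESeq2 or limma) ran up to 0.271. The size did not depend on any 1 library, since leaving out each in turn gave log2 fold changes between -1.28 and -1.04.

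Ctsl and Ctsb are broad endopeptidases of the lysosome and the most counted papain-type members. Ctsl (chromosome 13, 64359337 to 64370890) was at 1666.7 and 997.9 CPM in aged-SP replicates 1 and 4, at 984.6 CPM in young-SP replicate 1, and at 299.9 and 352.1 CPM in young-SP replicates 2 and 4. The groups did not overlap, but young-SP replicate 1 was only just below aged-SP replicate 4 and 3.02 times as high as the mean of the other young-SP libraries. edgeR put the log2 difference of Ctsl at 1.29 ± 0.56 (SE), with an adjusted p of 0.297. Without young-SP replicate 1 edgeR put it at 2.02, with an adjusted p of 0.0298, and the gene was called. Over all alternatives the adjusted p of Ctsl ran from 0.0298 to 0.667 (edgeR, DESeq2 or limma). Ctsb (chromosome 14, 63122462 to 63145923) was at 1258.5 and 1545.7 CPM in the aged-SP libraries and at 1183.4, 798 and 1035.5 CPM in young-SP replicates 1, 2 and 4. Its aged-SP libraries were the highest by a small margin, and edgeR put the log2 difference at 0.48 ± 0.19 (SE), with an adjusted p of 0.263.

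Ctsa and Ctsz were higher in the aged-SP group by a similar factor and with little spread. Ctsa, which trims carboxy termini and also protects lysosomal beta-galactosidase and neuraminidase, lies on chromosome 2 (164832873 to 164841032). It was at 254.9 and 280.1 CPM in the aged-SP libraries and at 198.5, 158.5 and 177.6 CPM in young-SP replicates 1, 2 and 4. The log2 difference was 0.59 ± 0.12 (SE, edgeR adjusted p = 0.107), a level 1.5 times that of the young-SP group, and DESeq2 gave an adjusted p of 0.00441, the lowest of the alternatives, which ran up to 0.283. Ctsz, a carboxypeptidase also called cathepsin X, lies on the same chromosome (174427493 to 174439039). The level of Ctsz was 188.9 and 223.7 CPM in the aged-SP libraries and 167.7, 126 and 141.8 CPM in young-SP replicates 1, 2 and 4, a log2 difference of 0.51 ± 0.15 (SE, edgeR adjusted p = 0.177). For both genes the aged-SP libraries stood above all young-SP libraries, and the log2 fold change stayed between 0.51 and 0.66 (Ctsa) and between 0.38 and 0.62 (Ctsz) with each library left out.

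Ctsh and Ctsc, the aminopeptidase and the dipeptidyl peptidase of the family, did not separate the groups. Ctsh (chromosome 9, 90054152 to 90076089) was at 197.1 and 263.6 CPM in the aged-SP libraries and at 199.7, 113.3 and 155.9 CPM in young-SP replicates 1, 2 and 4 (log2 difference 0.56 ± 0.26 SE, edgeR adjusted p = 0.318). Young-SP replicate 1 alone reached the aged-SP range of Ctsh. Without it, edgeR put the log2 difference at 0.76, with an adjusted p of 0.127. Ctsc activates granule proteases of leukocytes by removing a dipeptide, and lies on chromosome 7 (88278085 to 88310888). It was at 472.9 CPM in aged-SP replicate 1 but 151 CPM in aged-SP replicate 4, and at 212.4, 75 and 90.8 CPM in young-SP replicates 1, 2 and 4. The aged-SP libraries differed from each other by a factor of 3.13, and young-SP replicate 1 was higher than aged-SP replicate 4. The log2 difference of Ctsc, 1.31 ± 0.63 (SE, edgeR adjusted p = 0.329), rested on aged-SP replicate 1: without it, the value was 0.26. Among 10 granule proteases that include substrates of Ctsc, 8 could be tested, 1 had an unadjusted p under 0.05 in edgeR (19% of all tested genes), and the median log2 fold change was 1.25. The list was split: the granzymes of lymphocytes, Gzma, Gzmb and Gzmc, had log2 fold changes of -0.58, -0.80 and -0.84. The mast cell proteases Cma1, Mcpt4, Tpsb2 and Tpsab1 had values between 1.24 and 1.49, which were between 0.02 and 0.37 without aged-SP replicate 4. The granzymes also depended on single libraries: Gzmb was at -0.09 without aged-SP replicate 4, and Gzma and Gzmc at -0.01 and -0.23 without young-SP replicate 4. All these genes overlapped between the groups. The gene with the unadjusted p under 0.05 was Prtn3, a protease of myeloid granules, at 3.45 and 1.73 CPM in the aged-SP libraries and at most 0.751 CPM in the young-SP libraries. The most abundant of the list in FPKM, the mast cell chymase Cma1, overlapped between the groups, with 15.4 and 56.5 CPM in the aged-SP libraries and 7.69 to 23.8 CPM in the young-SP libraries.

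Ctss and Ctsk lie next to each other on chromosome 3 (95526786 to 95556403 and 95499256 to 95509362), 17.4 kb apart with no annotated gene between them, and had different patterns. Ctss cuts the invariant chain in antigen-presenting cells so that peptides can be loaded on class II molecules. It was at 166.6 and 232.9 CPM in the aged-SP libraries, at 237.6 CPM in young-SP replicate 1, and at 99 and 100.1 CPM in young-SP replicates 2 and 4. Young-SP replicate 1 was the highest library of all, and the log2 difference was 0.46 ± 0.43 (SE, edgeR adjusted p = 0.607). Without that replicate it was 0.99 (adjusted p = 0.0488 in edgeR), just short of the fold change needed for a call, and over all alternatives the adjusted p ran up to 0.896. Cd74, which encodes the invariant chain, was at 290.4 CPM in both aged-SP libraries and at 353.6, 258.7 and 295.5 CPM in young-SP replicates 1, 2 and 4. Of 8 class II genes and partners (median log2 fold change -0.07), 0 had an unadjusted p under 0.05 in edgeR, where 19% of all tested genes did. Ctsk, the collagen-degrading cathepsin best known from osteoclasts and also made by fibroblasts, was at 37.7 and 62.4 CPM in the aged-SP libraries and at 66.7, 58.6 and 71.4 CPM in young-SP replicates 1, 2 and 4. Only aged-SP replicate 1 lay below all young-SP libraries, and the log2 difference of -0.39 ± 0.23 (SE, edgeR adjusted p = 0.411) became -0.07 without it.

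Ctsw was the least abundant member, counted 140 and 63 times in aged-SP replicates 1 and 4 and 126, 149 and 162 times in young-SP replicates 1, 2 and 4. This papain-type protein is made by natural killer (NK) and cytotoxic T cells, and its gene lies on chromosome 19 (5465240 to 5468498). Its level was 8.46 and 4.03 CPM in the aged-SP group and 7.88, 8.81 and 10.8 CPM in the young-SP libraries. Aged-SP replicate 4 alone lay below all young-SP libraries (log2 difference -0.55 ± 0.36 SE, edgeR adjusted p = 0.449). Without aged-SP replicate 4 the value was -0.11, and without aged-SP replicate 1 it was -1.19. Of 11 T and NK cell markers, 11 had a log2 fold change below 0 (50.9% of all tested genes were above 0) and 5 had an unadjusted p under 0.05 in edgeR (9.36% of all tested genes in this direction), with a median of -0.85. Il2rb, which had the highest mean CPM among them, was at 15.8 and 11.6 CPM in the aged-SP libraries and 24.2, 21.2 and 31.4 CPM in the young-SP libraries. The summed level of the 11 markers was 59.9 and 43.4 CPM in the aged-SP group and between 75.6 and 103.9 CPM in the young-SP libraries. Aged-SP replicate 4 was the lowest library here too. In RNA of whole tissue, fewer cells of a type and less RNA per cell cannot be told apart.

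**Figure D3:**
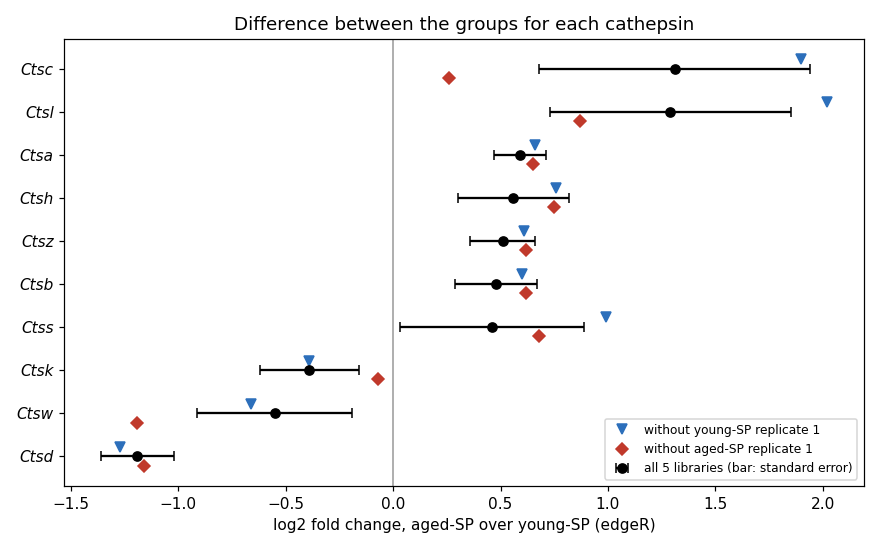
Log2 fold change (aged-SP over young-SP, edgeR) of each cathepsin with all 5 libraries (black, bar: standard error), without young-SP replicate 1 (blue triangles) and without aged-SP replicate 1 (red diamonds). Ctsd stays between -1.27 and -1.16 in the 3 fits, whereas Ctsc moves from 1.31 to 1.90 or 0.26 and Ctsl from 1.29 to 2.02 or 0.87.

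Young-SP replicate 1 also differed in the cathepsins themselves. It was the highest of the 3 young-SP libraries for each of the 7 cathepsins with a log2 fold change above 0, as it was for 40.8% of all tested genes with a log2 fold change above 0, and for none of the 3 others. The excess over the mean of young-SP replicates 2 and 4 was small for Ctsa (1.18 times), Ctsz (1.25 times) and Ctsb (1.29 times), and large for Ctss (2.39 times), Ctsc (2.56 times) and Ctsl (3.02 times). Without this library, edgeR called 2 of the 10 cathepsins (Ctsd, lower, and Ctsl, higher in the aged-SP group), where it called 3.45% of all genes tested in that fit. Ctsa and Ctss also had an adjusted p under 0.05 in this fit, which made 4 of the 10 with such a p (4.81% of all genes tested), and 7 had an unadjusted p under 0.05 in the higher direction (11.6%).

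Summed markers of several cell types were also high in young-SP replicate 1 when set against the other young-SP libraries. Uterine gland markers summed to 4075 and 2927.6 CPM in aged-SP replicates 1 and 4, to 500.6 CPM in young-SP replicate 1 and to 32.8 and 34.8 CPM in young-SP replicates 2 and 4, which is the order of the libraries for Ctsl. The most abundant of them was Prss29, an implantation serine proteinase of the glands, with the levels given above. Together with Prss28 (1446.2, 763.8 and 90.7 CPM in the same order) it made up most of the sum in the aged-SP libraries and young-SP replicate 1, so that the order is that of these proteases. The gland factor Foxa2 was at 10.6 and 12 CPM in the aged-SP libraries and 8.51, 14.1 and 11.6 CPM in the young-SP libraries. The 6 gland markers did not share a direction, with 4 log2 fold changes above 0, 2 below and a median of 1.89. Macrophage markers (10 genes, 10 tested, median log2 fold change 0.18, 0 with an unadjusted p under 0.05 in edgeR) summed to 1985.6 and 2336.6 CPM in the aged-SP group and to 2304.4, 1083 and 1524.4 CPM in young-SP replicates 1, 2 and 4, the high value of replicate 1 being shared with Ctss. Epithelial markers summed to 1190.1 and 1304.2 CPM in the aged-SP group and to 1547.5, 731.4 and 912.3 CPM in the young-SP group. For stroma, the sums were 3543 and 4365.6 CPM in the aged-SP group and between 3598 and 5150.7 CPM in the young-SP group. Of the tested markers with an unadjusted p under 0.05 in edgeR, the gland list of 6 had 1 above and 1 below the young-SP level, the stroma list of 7 (median log2 fold change -0.28) had 1 higher and 3 lower, the epithelium list of 7 (median 0.38) had 1 higher and the endothelium list of 5 (median -0.17) had 1 lower. Lists of general leukocytes (5 tested, median -0.19), dendritic cells (6, -0.19), neutrophils (6, -0.43), B cells (2, 0.02), myometrium (5, -0.24) and ovary, oviduct and fat (3, 0.17) had 0 such genes. The genes with the highest mean CPM in the lists of macrophages (Lyz2), leukocytes (Ptprc), dendritic cells (Zbtb46), neutrophils (S100a9), B cells (Cd79b), epithelium (Krt8), stroma (Dcn), myometrium (Myh11), endothelium (Pecam1) and ovary, oviduct and fat (Ovgp1) had log2 fold changes between -0.63 and 0.35. With a library left out, the value of each except Pecam1 reached or crossed 0, and that of S100a9 ran from -4.22 without aged-SP replicate 1 to 1.38 without young-SP replicate 1. The part of these cell types in the cathepsin levels was not tested. Markers of osteoclasts, in which Ctsk is best known, were near 0, with a summed level between 0.188 and 1.93 CPM, and 0 of the 4 could be tested.

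An E-box, a short sequence bound by factors that act on lysosomal genes, lay near a transcription start of Ctsa, Ctsd and Ctsl. Lysosomal genes are known to be activated by the MiT family of transcription factors (Tfeb, Tfe3, Tfec and Mitf), which bind the E-box CACGTG, best with the flanks TCACGTGA. The 250 bases before the start were searched on both strands in 8 RefSeq promoters (GRCm38.p6), which cover 7 of the 10 genes. TCACGTGA occurred before a start of Ctsa and of Ctsd, and in 0.786% of all 32817 promoters of the same length. CACGTG, which is part of it, occurred in those of Ctsa, Ctsd and Ctsl, and in 6.02% of all promoters. The windows of 30 bases around these matches, on the strand of the gene and with the match in capitals, are shown because Ctsa was higher and Ctsd lower in the aged-SP group:
Ctsa, chr2:164833749-164833778, plus strand: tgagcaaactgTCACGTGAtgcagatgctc
Ctsd, chr7:142387908-142387937, minus strand: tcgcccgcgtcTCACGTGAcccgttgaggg
Ctsd, chr7:142388048-142388077, minus strand: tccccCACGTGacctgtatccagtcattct
Ctsl, chr13:64370739-64370768, minus strand: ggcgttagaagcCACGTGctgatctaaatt

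The E-box begins 12 bases before the start in Ctsa, 98 and 245 bases before it in Ctsd and 236 bases before it in Ctsl. In GENCODE M21 the first and second windows lie wholly within annotated exons of the same genes, the third lies outside Ctsd, and 15 of the 30 bases of the fourth are exonic in Ctsl. The searched stretch with the match lies wholly inside the gene for Ctsa (164 exonic and 86 intronic bases) and for Ctsl (48 and 202), so these starts are internal. For Ctsd, 211 of its bases are exonic and 39 lie outside the gene, so that start is internal too. Another Ctsa promoter, whose searched stretch ends at 164832871, just outside the annotated start of the gene (164832873), had no E-box. Among the MiT factors, Mitf was called by edgeR. It was at 74 and 83.5 CPM in the aged-SP libraries and at 30.4, 22.8 and 28.3 CPM in young-SP replicates 1, 2 and 4, a log2 difference of 1.54 ± 0.15 (SE, edgeR adjusted p = 0.0484). The call was lost in some alternatives, with adjusted p-values up to 0.225 (edgeR without aged-SP replicate 1), while the log2 fold change of Mitf stayed between 1.42 and 1.62 with each library left out. The other 3 factors had an unadjusted p over 0.05, and the median log2 fold change of the 4 was 0.22. A match is a run of letters and was not tested for binding.

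The rest of the cathepsin system was described from lists. Of 15 other cathepsins and relatives, 8 were listed and 4 tested (median log2 fold change 0.46), and 1 had an unadjusted p under 0.05 in edgeR (19% of all tested genes). This was Ctsf, a further papain-type endopeptidase, at 75.7 and 76.1 CPM in the aged-SP libraries and 38.7, 40.2 and 53.2 CPM in young-SP replicates 1, 2 and 4 (log2 fold change 0.79, adjusted p = 0.1 in edgeR and 0.00361 in DESeq2). Ctsj and Ctsr, which belong to the placental cathepsins, had at most 1 count in any library. Of 27 cathepsin inhibitors, 17 were listed and 10 tested (median log2 fold change 0.22). In edgeR 2 had an unadjusted p under 0.05 (19% of all tested genes), both higher in the aged-SP group (9.62% in this direction). These were the weakly expressed Kng2 and Ctla2b, at or below 3.84 and 1.73 CPM. The most abundant inhibitor was Ctla2a, a homologue of the propeptide of Ctsl, at 1210.1 and 1684.4 CPM in the aged-SP libraries and 1350.5, 633.8 and 1659.9 CPM in young-SP replicates 1, 2 and 4 (edgeR adjusted p = 0.775).

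Among 6 other lysosomal proteases, 5 had an unadjusted p under 0.05 in edgeR, all higher in the aged-SP group, where 9.62% of all tested genes did, 0 were called, and the median log2 fold change was 0.62. Lgmn, the asparaginyl endopeptidase that processes cathepsin precursors, was at 248 and 217 CPM in the aged-SP libraries and at 192, 107 and 109 CPM in young-SP replicates 1, 2 and 4 (log2 fold change 0.78, adjusted p = 0.233 in edgeR). Without young-SP replicate 1, Lgmn passed both calling thresholds (log2 fold change 1.1, adjusted p = 0.0203 in edgeR). In that fit 3.45% of all genes tested did so. Lgmn had a log2 fold change of 0.63 when young-SP replicate 2 or 4 was dropped instead (edgeR adjusted p = 0.468 and 0.417). Tpp1, a tripeptidyl peptidase, had a log2 difference of 0.67 (edgeR adjusted p = 0.0829), and of 0.71 without young-SP replicate 1 (edgeR adjusted p = 0.0448). Dropping young-SP replicate 2 or 4 instead gave Tpp1 an edgeR adjusted p of 0.234 or 0.231. Dpp7 and Scpep1, which trim the ends of peptides, had log2 fold changes of 0.57 and 0.54. Napsa, an aspartic protease like Ctsd, had a fold change of the opposite sign, with 153 CPM in aged-SP replicate 1, 15.3 CPM in aged-SP replicate 4 and between 5.38 and 5.67 CPM in the young-SP libraries (log2 fold change 3.93, edgeR adjusted p = 0.119, DESeq2 0.00535). Without aged-SP replicate 1 the log2 difference of Napsa was 1.47.

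In the 31 lysosomal hydrolases outside the proteases, 12 had an unadjusted p under 0.05 in the higher and 2 in the lower direction in edgeR (9.62% and 9.36% of all tested genes), and the median log2 fold change was 0.18. Psap, the precursor of the saposins, was the most abundant at 1166.4 and 1686.8 CPM in the aged-SP libraries and 839 to 1060 CPM in the young-SP libraries. Gaa (0.64) and Galc (0.87), which break down glycogen and galactolipids, had positive log2 fold changes, and Sgsh, a heparan sulfate sulfatase, a negative one (-0.73). Without young-SP replicate 1 the value of Galc was 1.01 (edgeR adjusted p = 0.0462). It was 0.79 or 0.80 when young-SP replicate 2 or 4 was dropped instead (edgeR adjusted p = 0.308 and 0.283). Of 25 tested genes of the lysosomal membrane and proton pump, 6 were at an unadjusted p under 0.05 in the higher and 1 in the lower direction (9.62% and 9.36% of all tested genes), with a median log2 fold change of 0.09. Lamp1 was at 333 and 381 CPM in the aged-SP libraries and between 258 and 302 CPM in the young-SP libraries. Atp6v0b, a pump subunit, and Ctns, the cystine transporter, had log2 fold changes of 0.45 and 0.54. Atp6v0d2, another pump subunit, was at 50.2 and 7.61 CPM in the aged-SP libraries and at most 2.78 CPM in the young-SP libraries.

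Genes of delivery to the lysosome were split. Of 9 tested (median log2 fold change 0.18), 3 (Igf2r, Gnptg and Scarb2) had an unadjusted p under 0.05 in the higher direction in edgeR (9.62% of all tested genes). Igf2r, a mannose 6-phosphate receptor, was at 235 and 253 CPM in the aged-SP libraries and 194 to 209 CPM in the young-SP libraries. The other receptor, M6pr, overlapped between the groups, at 214 and 197 CPM in the aged-SP libraries and 160 to 217 CPM in the young-SP libraries. The 1 gene in the lower direction (9.36% of all tested genes) was Lrp2 (megalin), an endocytic receptor that takes up proteins from the lumen, at 24.8 and 17.3 CPM in the aged-SP libraries and 176, 362 and 554 CPM in young-SP replicates 1, 2 and 4. Lrp2 had a log2 difference of -4.11 (edgeR adjusted p = 0.0734, DESeq2 1.5e-17), and of -4.46 without young-SP replicate 1 (edgeR adjusted p = 0.0105). Dropping young-SP replicate 2 or 4 instead gave Lrp2 -4.12 or -3.68 (edgeR adjusted p = 0.213 and 0.214).

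**Figure D4:**
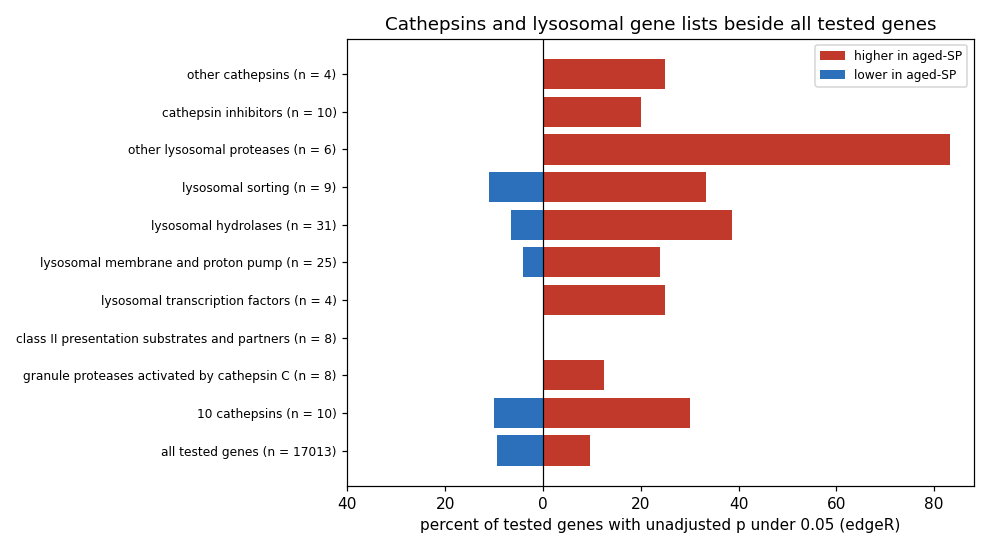
Percent of the tested genes of each list with an unadjusted p under 0.05 in edgeR, higher (red, to the right) or lower (blue, to the left) in the aged-SP group, with the number tested. All tested genes stand at 9.62% higher and 9.36% lower; 3 of the 10 cathepsins and 5 of 6 other lysosomal proteases are on the higher side, and none of the 8 class II genes on either.

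The genes most like a cathepsin over the libraries were found for the 3 members with the smallest unadjusted p, by the root mean square difference of log2 CPM after centring each gene on its mean over the 5 libraries, among 13433 genes. For Ctsd they were Crtap (0.0916), Tvp23a (0.0917) and Tnnt2 (0.0954), and Crtap was at 56.6 and 61 CPM in the aged-SP libraries and 118, 112 and 137 CPM in young-SP replicates 1, 2 and 4. For Ctsa they were Bcl6 (0.0376), Bnip3 (0.0438) and Rin2 (0.0544). For Ctsz they were Pqlc2 (0.025), Hfe (0.0354) and P2rx4 (0.0434). The 3 nearest of 13433 genes over 5 libraries were taken whatever their distance, and a shared function was not tested.

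Counts of some members are less certain than those of others. Ctsk, Ctss, Ctsw and Ctsz shared 0% of their 50-base stretches with transcripts of other genes in GENCODE M21, on either strand, and Ctsh and Ctsc under 1% (0.0635% and 0.482%). The share was 11.6% for Ctsa, which meets Pltp and Neurl2 on the opposite strand, and 12.1% for Ctsb, which meets Fdft1. It was 26.3% for Ctsl and 32.4% for Ctsd, mostly with the transcripts Gm47123 and Gm49230 (Ctsl) and Gm49369 (Ctsd), none of which is listed in the deposited table. The library kit is not described as keeping the strand, so reads from overlapping genes on opposite strands cannot be told apart. Gm49369 and Gm49230 lie on the same strand as Ctsd and Ctsl, so the strand of a read would not separate them.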

How the data were processed

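The data are RNA-seq of the uterus of 5 ICR females. The authors filtered the reads and aligned them with HISAT2 2.1.0, and their processing notes also name Bowtie2 2.2.3 and HTSeq 0.6.0. They deposited the unnormalized count of each gene per library, without pooling replicates, and per-library FPKM values. The deposited FPKM were checked to be these counts per gene length and total count. The deposited table also holds a mean signal over the 5 libraries after DESeq2 scaling, and the fold change as ratio, log2 fold change, p-value and adjusted p-value from the authors' own DESeq2 comparison, none of which were used. The genome build is not given in the sources used here; 26998 of 28666 positions, and those of 9 of the 10 cathepsins (not Ctsw), equal those of GENCODE M21 (GRCm38), which lacks 50 of the identifiers.

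Groups were taken from the sample titles. Counts were tested on all 5 libraries with edgeR 4.0.16 in R 4.3.3 (filterByExpr, TMM factors between 0.99 and 1.02, glmQLFit and glmQLFTest with the group as the only term). Standard errors are the log2 fold change over the square root of F. CPM values use the TMM-scaled library size. DESeq2 1.42.0, limma-voom (limma 3.58.1), other scalings and filters, a replicate block and each library left out were alternatives. The tests were checked on simulated data. These were drawn with the spread that edgeR estimated and without a library that stood apart, so they cannot rank DESeq2 against edgeR. The cathepsins, the gene lists and the tests were chosen with earlier results of these data known. Named genes are the 10 cathepsins, up to 4 genes of each lysosomal list by the smallest unadjusted p under 0.05, the gene of each such list with the highest mean FPKM, the gene of each marker list with the highest mean CPM, called markers, and the genes most like the 3 cathepsins with the smallest p that have a mean of at least 50 counts. Of the genes this rule names, 2 are not reported here. Marker lists of leukocytes, dendritic cells, neutrophils, B cells, muscle, endothelium and ovary, oviduct and fat were also summed. Tables were made with Python 3.11.15 and pandas 2.3.3. Precision is limited by the 2 and 3 females per group, and 0 columns of single samples were left unused.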

Additional observations from a re-analysis of the deposited data

How the results depend on the processing

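Each of the 10 cathepsins kept the direction of its log2 fold change in all 12 alternative fits. Of the 120 fold changes in these fits, 116 stayed on their side of the calling thresholds and 4 passed them: Ctsd with DESeq2's Wald test (-1.20), with no filter on low counts (-1.19) and without young-SP replicate 1 (-1.27), and Ctsl without young-SP replicate 1 (2.02). The median log2 fold change of the cathepsins lay between 0.33 and 0.63 with a library left out and was 0.36 with the replicate number as a block. The number of cathepsins called was 1 with DESeq2 and with no filter, and between 0 and 2 with a library left out. Over all tested genes, edgeR called 25, against 632 with DESeq2, 203 with no filter, 2 with the replicate block, and between 1 and 578 with a library left out (578 without young-SP replicate 1, 1 without aged-SP replicate 1, 49 without aged-SP replicate 4, 3 and 2 without young-SP replicates 2 and 4). The cause of these shifts was not tested. Only replicates 1 and 4 occur in both groups, and the labels do not say that a number marks a shared batch, so the numbers were not used to pair females. Deviations from the group means correlated at 0.152 and 0.136 between same-numbered libraries. With 2 aged-SP libraries these deviations mirror each other, so the values cannot decide on pairing. With the block, edgeR put Ctsc at 0.95 ± 0.15 (SE) and Ctsl at 1.13 ± 0.21, smaller SEs than without it. The SE was larger with the block for Ctsa, Ctss (0.47), Ctsw (0.46) and Ctsz. Where 1 aged-SP library was left, it was assumed to vary like the others. Depth limits Ctsw most, with at most 162 counts in a library.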
